A study of Mus musculus with 3 samples.

Results

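A set of 36 genes of meiotic recombination and synapsis was examined for nucleosomes that carry the histone variants TH2B or TH2A in mouse sperm. They are 36 of the 22028 protein-coding genes in the annotation and come from a list of meiotic cohesins, synaptonemal complex proteins, recombination factors, telomere attachment proteins, a piRNA helicase and single genes of meiotic entry and checkpoint control. The list was not chosen by a cut on measured values, but it includes genes that the study itself names for a TH2B peak. For each gene the peaks in the gene or within 5 kb of either end were counted.

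The study mapped both variants by native ChIP-seq, without crosslinking, in mature caudal sperm of BALB/c-129-E mice aged 8 to 12 weeks. TH2B was precipitated with a rabbit antibody from Sigma-Aldrich (#07-680) and TH2A with a rabbit antibody from RIKEN, and mononucleosomal Input DNA of the same kind of sperm was the control of the peak calling. The ChIP reactions of a variant were pooled before sequencing, so that there was 1 library per variant, read over 150 bp at a depth near 30000000 unique pairs (TH2B) and 34000000 (TH2A). No genotype, treatment or time differed between the libraries, and with 1 library each no difference between TH2A and TH2B could be tested.

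The TH2B list held 1179 peaks and the TH2A list 210, of which 1140 and 188 lay on assembled chromosomes. The lists give positions in mm10 with no height or score, so the strength of a peak and the depth behind it are unknown. Positions of peaks hold no expression, so the labelled cell type was not checked against marker genes.

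In meiosis, replicated sister chromatids are held together by cohesin complexes with subunits of their own, and homologous chromosomes are joined along their length by the synaptonemal complex. Programmed DNA double-strand breaks are repaired from the homologue, and some of them become crossovers. Most of these genes act in spermatocytes, long before the sperm forms. During the later packing of the sperm nucleus most histones are exchanged for protamines. The peaks described here are positions called as enriched over Input in DNA that the TH2B or TH2A antibody precipitated from mature sperm.

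A TH2B peak lay in or within 5 kb of 6 of the 36 meiosis genes, which is 16.7% (95% Wilson interval 7.87% to 31.9%). The 6 genes were Rec8, Sycp2, Syce1, Slx4, Hus1b and Mov10l1. Over all protein-coding genes the share was 931 of 22028, or 4.23%. These 6 genes are exactly the ones of the list that the study names for TH2B, so their number is not independent evidence that meiosis genes hold more peaks. Of the other 30 genes 0 had a TH2B peak, which by counting error alone allows a share of up to 10%. The study named its genes from this same peak list, and leaving them out takes out every gene with a peak. The 0 of 30 is therefore no more independent than the 6 of 36, and no conclusion is drawn from it. All intervals and limits cover counting error only.

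No TH2A peak lay in or within 5 kb of any of the 36 genes, which allows a share of up to 8.33%. The background for TH2A was 48 of 22028 genes, or 0.218%, so the count of 0 among 36 is not a result about these genes.

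**Figure D1:**
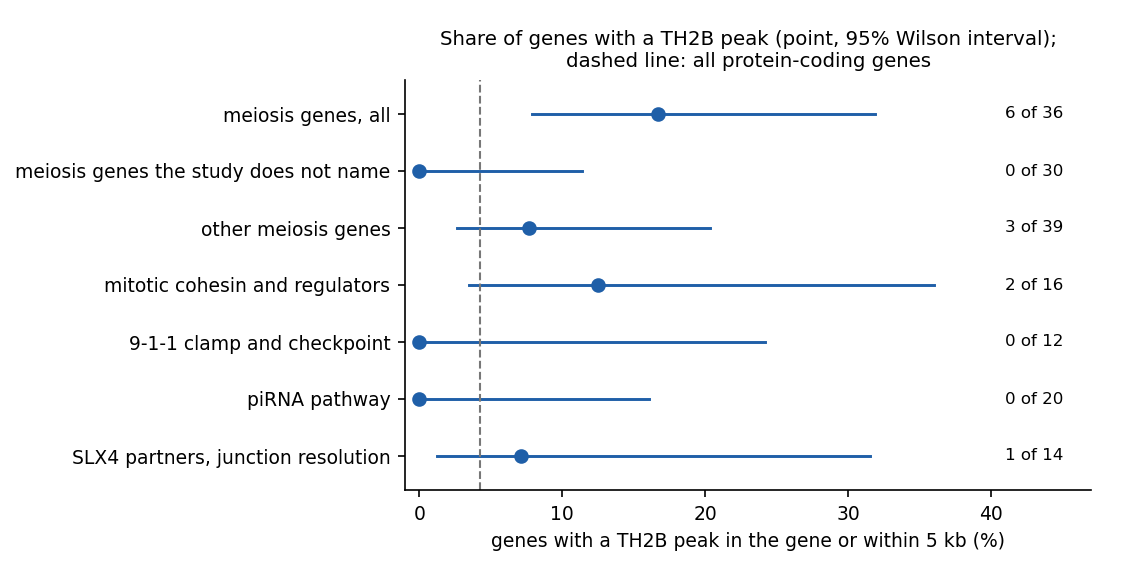
Share of genes (%) with a TH2B peak no more than 5 kb from the gene, for the meiosis genes and for related gene lists. Points are shares, bars are 95% Wilson intervals, counts stand at the right and the dashed line marks the 4.23% of all protein-coding genes. The 6 of 36 lies above the line and the 0 of 30 for genes the study does not name lies below it, with a Wilson interval up to 11.4%. The study named its genes from these same peaks, so neither point is independent of that choice.

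In the gene body itself 5 of 36 genes held a TH2B peak (13.9%), beside 2.89% of protein-coding genes. The peak centre was within 1 kb of a transcription start site (TSS) of the gene in 5 of 36 (13.9%), beside 2.25%. Slx4 was the 1 gene with more than 1 peak, beside 0.327% of protein-coding genes. In each of these counts the genes are again ones that the study names, so the shares describe where the peaks lie and no more.

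From the centre of the closest TH2B peak to a TSS of its gene the distance had a median of 398.5 bp over the 6 genes and a range of 41 to 4490.5 bp. Of the 6 genes, 5 had a peak in the first kilobase on either side of a start site, and Syce1 did not. Of all 931 protein-coding genes with a TH2B peak, 496 (53.3%) had one within 1 kb of their own TSS. None of the 7 peaks at meiosis genes overlapped a TH2A peak or had a near-identical copy elsewhere in the genome. Of all 1140 TH2B peaks on assembled chromosomes, 282 (24.7%) had such a copy. The paper reports that only a small part of the TH2B peaks is shared with TH2A. With only 7 peaks, neither absence is therefore a result about the meiosis genes.

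**Figure D2:**
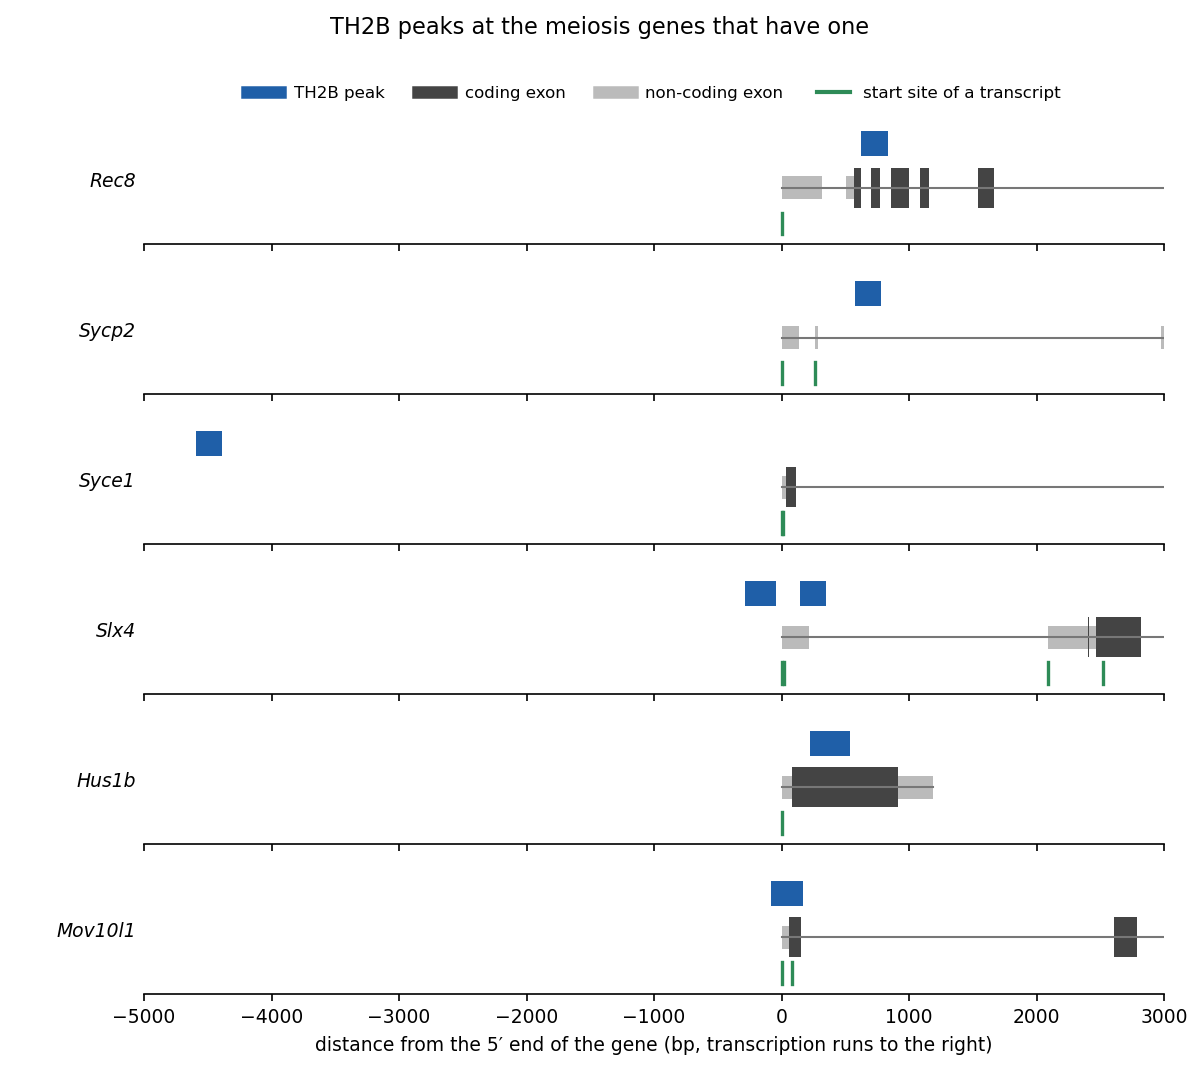
The 6 meiosis genes with a TH2B peak, drawn to scale by distance in bp from the 5′ end of each gene, with transcription to the right. Exons of all annotated transcripts are boxes, start sites are green ticks and the 7 TH2B peaks are blue. All peaks but that of Syce1 lie within 1 kb of the 5′ end.

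Among the 4 cohesin genes, Rec8 alone had a TH2B peak. REC8 is the meiosis-specific kleisin subunit that closes the cohesin ring and is cleaved when chromosomes separate. The gene lies on the plus strand of chromosome 14 from 55618037 to 55625395. Its peak, chr14:55618657-55618872 in mm10, was 216 bp wide and centred 727.5 bp downstream of the TSS. It reached from the end of exon 2 through intron 2 and exon 3 into intron 3 of the principal transcript, which has 20 exons, and 71 bp (32.9%) of it were coding sequence. The sequence is shown because it is also the site that the study tested by ChIP-qPCR, and capitals mark its 5 CpG dinucleotides here and in all sequences that follow.
Rec8: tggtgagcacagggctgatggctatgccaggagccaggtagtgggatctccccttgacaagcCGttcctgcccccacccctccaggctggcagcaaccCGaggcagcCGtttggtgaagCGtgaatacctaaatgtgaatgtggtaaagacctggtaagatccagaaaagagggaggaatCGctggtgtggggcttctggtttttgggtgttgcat

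The primers designed for Rec8 matched the genome at this peak. The forward primer was gtttggtgaagcgtgaatacct and the reverse primer ccctgatcaatgcaacaccc. Their product, chr14:55618765-55618881, was 117 bp long, and 108 bp of it lay inside the peak. The product thus covered the downstream part of the peak.

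The other cohesin genes were far from TH2B peaks. Smc1b, which encodes a ring arm of the meiotic complex, was 3.85 Mb from the nearest one, and that peak was the one at Mov10l1. Stag3, the meiotic partner subunit, was 1.13 Mb away from a peak near Muc3, and Rad21l, a second meiotic kleisin, was 1.11 Mb away.

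Among the 7 synaptonemal complex genes, Sycp2 and Syce1 had a TH2B peak. SYCP2 is a component of the axial, later lateral, elements that run along each homologue. Sycp2 lies on the minus strand of chromosome 2 from 178345293 to 178407685, and its peak, chr2:178406906-178407105, was 200 bp wide. The peak centre was 416.5 bp downstream of the nearest TSS, that of a shorter transcript, and 679.5 bp from the 5′ end of the gene. It lay wholly in intron 1 of the principal transcript, which has 44 exons, and touched no exon. The sequence, on the strand of the gene, is shown for its run of CpG in alternating purines and pyrimidines.
Sycp2: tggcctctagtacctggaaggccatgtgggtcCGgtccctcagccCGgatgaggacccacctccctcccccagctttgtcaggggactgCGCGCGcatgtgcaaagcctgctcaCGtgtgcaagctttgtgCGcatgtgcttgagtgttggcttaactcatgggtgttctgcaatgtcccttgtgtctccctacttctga

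SYCE1 belongs to the central element that ties the homologues together. Syce1, on the minus strand of chromosome 7 from 140777229 to 140787852, had its peak outside the gene. The peak, chr7:140792240-140792445, was 206 bp wide, began 4388 bp upstream of the gene and was centred 4490.5 bp from the TSS. No TSS of another gene was nearer: the next one, of the pseudogene Gm29799, was 7827.5 bp away. The peak held 2 CpG, and 26.7% of its bases were soft-masked as repeats. It is shown as the poorest in CpG of the 7 peaks.
Syce1: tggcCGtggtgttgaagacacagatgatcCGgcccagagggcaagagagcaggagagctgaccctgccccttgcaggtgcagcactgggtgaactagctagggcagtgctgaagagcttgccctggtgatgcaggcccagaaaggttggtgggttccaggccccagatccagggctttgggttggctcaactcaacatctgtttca

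The remaining 5 genes of the complex had no TH2B peak within 5 kb. Syce3, a further central element gene, came nearest, with a peak 10450 bp away whose nearest TSS was that of Odf3b. Syce2 was 62.3 kb from a peak by Rtbdn. Tex12, which encodes the partner of SYCE2, was 2.12 Mb away. Sycp1, the gene of the transverse filaments, and Sycp3, that of the second axial element protein, were 3.75 and 5.60 Mb away.

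Among the 7 genes of crossover formation and junction resolution, Slx4 had 2 TH2B peaks and the others none. SLX4 is a scaffold that holds structure-specific nucleases and helps to cut DNA junctions. Slx4 lies on the minus strand of chromosome 16 from 3979105 to 4003770. One peak, chr16:4003422-4003628, was 207 bp wide and centred 227 bp downstream of a TSS. The other, chr16:4003810-4004054, was 245 bp wide and centred 162 bp upstream, with its near edge 40 bp outside the gene. The peaks flanked a pair of start sites 18 bp apart, those of 2 short transcripts.

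The downstream peak covered 71 bp of the non-coding first exon of the short transcript that starts farther inside the gene. It did not reach the first exon of the other short transcript. The principal transcript starts 2090 bp inside the 5′ end of the gene. The start site in RefSeq is 2 bp from it, and the nearest peak centre was 1847 bp from the RefSeq start. Whether the peaks of Slx4 are at a start site thus depends on the annotation. Having 2 or more peaks was uncommon among genes with a TH2B peak, at 72 of 931 (7.73%). Both sequences are shown because they lie on either side of a start site and are the richest in CpG of the 7 relative to their base content, with 15 and 21 CpG.
Slx4 downstream: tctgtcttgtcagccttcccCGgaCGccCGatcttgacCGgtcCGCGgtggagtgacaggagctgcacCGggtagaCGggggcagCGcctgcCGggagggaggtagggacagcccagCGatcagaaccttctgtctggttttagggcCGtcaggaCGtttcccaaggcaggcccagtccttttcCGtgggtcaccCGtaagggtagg
Slx4 upstream: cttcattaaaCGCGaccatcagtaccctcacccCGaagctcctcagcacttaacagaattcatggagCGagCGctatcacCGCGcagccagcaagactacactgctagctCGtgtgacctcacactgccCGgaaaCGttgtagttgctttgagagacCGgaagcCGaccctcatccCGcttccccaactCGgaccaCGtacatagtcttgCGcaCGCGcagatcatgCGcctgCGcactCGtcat

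Of the other crossover genes, Mlh3 was the nearest to a TH2B peak among all members without one. MLH3 is the endonuclease subunit of the MutL complex that makes crossovers. The gap was 9510 bp, and the nearest TSS to that peak was that of Acyp1. Msh5, which encodes a subunit of the MutS clamp that stabilizes recombination intermediates, was 19.3 kb from a peak by Mpig6b, whereas Msh4, its partner, was 8.56 Mb from one.

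Ccnb1ip1 and Rnf212, which encode RING-domain proteins that select crossover sites, were 0.673 and 2.36 Mb away. Tex11, the single member on the X chromosome, was the farthest of all at 25.1 Mb, on a chromosome with 8 TH2B peaks.

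Hus1b and Mov10l1 stand somewhat apart from recombination proper. HUS1B is a paralogue of HUS1, a subunit of the 9-1-1 clamp that is loaded at damaged DNA. Hus1b is a gene of 1 exon on the minus strand of chromosome 13, from 30946573 to 30947759, inside an intron of Exoc2 on the same strand. Its peak, chr13:30947220-30947537, was the widest of the 7 at 318 bp, was centred 380.5 bp downstream of the TSS and lay wholly in coding sequence. The nearest Exoc2 TSS was 2919.5 bp away. The central 300 bp, chr13:30947229-30947528, are shown because the whole stretch codes for protein.
Hus1b: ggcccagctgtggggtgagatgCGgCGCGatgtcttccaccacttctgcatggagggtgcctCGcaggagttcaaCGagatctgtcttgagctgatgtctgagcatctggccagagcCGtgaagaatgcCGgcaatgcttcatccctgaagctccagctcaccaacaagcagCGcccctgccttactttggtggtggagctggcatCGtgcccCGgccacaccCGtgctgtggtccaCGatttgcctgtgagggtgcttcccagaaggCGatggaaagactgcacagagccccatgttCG

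MOV10L1 is the helicase that delivers precursors of piRNAs, the small RNAs that silence transposons in the male germ line. Mov10l1 lies on the plus strand of chromosome 15 from 88982909 to 89055152. Its peak, chr15:88982825-88983081, was 257 bp wide, was centred 41 bp from the nearest TSS and was the only one of the 7 to cover a TSS, with 2 of the 4 start sites of the gene inside it. It also covered a coding start in exon 1, and 97 bp (37.7%) of it were coding in a transcript of the gene. It is shown as the peak that is placed directly on a promoter.
Mov10l1: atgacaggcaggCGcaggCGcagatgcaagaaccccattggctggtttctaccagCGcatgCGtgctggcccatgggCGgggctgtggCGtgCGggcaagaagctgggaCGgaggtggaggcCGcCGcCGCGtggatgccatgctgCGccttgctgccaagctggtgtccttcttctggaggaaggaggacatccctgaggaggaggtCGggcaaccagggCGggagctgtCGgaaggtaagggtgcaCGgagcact

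The members of the remaining roles had no peak of either variant. HORMAD1 and HORMAD2 are proteins of the chromosome axis that TRIP13 removes as synapsis proceeds. Hormad2 was 71.9 kb, Hormad1 0.319 Mb and Trip13 0.870 Mb from the nearest TH2B peak.

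Of the 5 genes of break formation, Spo11, which encodes the enzyme that makes the breaks, and Prdm9, whose product places them, were 0.399 and 0.518 Mb away. Mei4, Rec114 and Mei1, genes of accessory proteins, were 1.24, 2.63 and 6.86 Mb away.

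Of the 4 strand exchange genes, Brca2, the loader of the recombinases, was 94.7 kb from a TH2B peak. Meiob and Spata22, which encode partners on single-stranded DNA, were 0.434 and 0.928 Mb from one, and Dmc1, the meiotic recombinase, was 5.81 Mb from one. The 3 telomere attachment genes Majin, Terb1 and Sun1, which tether chromosome ends to the nuclear envelope, were 0.103, 0.137 and 0.234 Mb away. Stra8, required for entry into meiosis, was 2.67 Mb away.

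Over the 30 meiosis genes with no TH2B peak within 5 kb, the median distance to the nearest one was 0.899 Mb. Over the 21097 protein-coding genes without one it was 0.761 Mb. Counting all members, 12 of 36 (33.3%) had a TH2B peak inside or no more than 100 kb away, beside 15.8% of protein-coding genes, and 6 of those 12 are the genes already described. Among the 30 the count was 6 (20%), namely Mlh3, Syce3, Msh5, Syce2, Hormad2 and Brca2, beside 12.1% of the protein-coding genes without a nearer peak. These peaks lay by other genes, and members on the same chromosome can share a nearest peak.

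**Figure D3:**
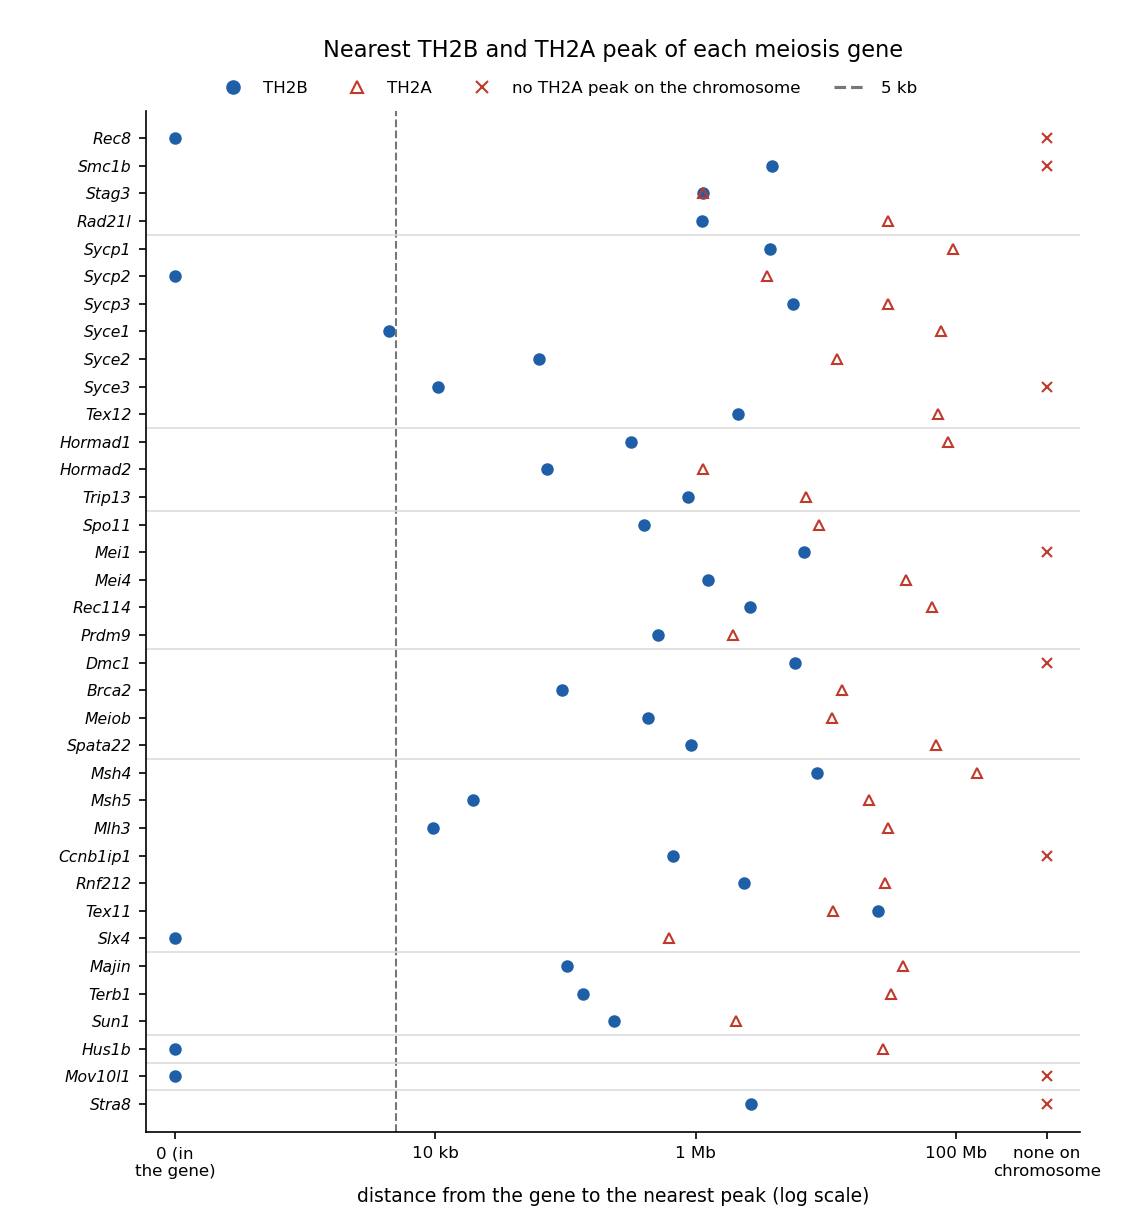
Distance from each of the 36 meiosis genes, grouped by role, to the nearest TH2B peak (filled circles) and TH2A peak (open triangles) on a log scale. A peak in the gene stands at the left edge, the dashed line marks 5 kb and crosses mark chromosomes without a TH2A peak. The 6 filled circles left of the line are the genes with a TH2B peak, and no TH2A triangle lies there.

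TH2A peaks were far from all members. The nearest was 0.629 Mb from Slx4, and those of Stag3 and Hormad2 were 1.13 and 1.15 Mb away. The farthest was that of Msh4, at 145.6 Mb. The TH2A peak nearest to Stag3, chr5:137149321-137149570, overlapped its nearest TH2B peak, and both were closest to a TSS of Muc3.

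On chromosomes with no TH2A peak lay 8 of the 36 members, beside 2867 of 22028 protein-coding genes (scaffolds included). The 8 members were Rec8 and Ccnb1ip1 on chromosome 14, Smc1b, Syce3, Mei1, Dmc1 and Mov10l1 on chromosome 15, and Stra8 on chromosome 6. The paper names chromosome 6 among those with TH2A binding sites, but the list used here held no peak on it. Over the other 28 members the median distance was 28.0 Mb, beside 22.6 Mb over protein-coding genes. Within 1 Mb of a TH2A peak lay 1 of 36 members (2.78%), beside 3.8% of protein-coding genes.

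The 7 peaks at meiosis genes differed widely among themselves in base composition. GC content ran from 56.0% at Rec8 to 65.8% at Mov10l1, where all TH2B peaks had a median of 59.8%. The ratio of observed to expected CpG, which corrects the number of CpG for base content, was 0.115 at Syce1, 0.304 at Rec8, 0.410 at Sycp2, 0.484 at Hus1b, 0.646 at Mov10l1 and 0.709 and 1.14 at the downstream and upstream peaks of Slx4. The median of all TH2B peaks was 0.487. The upstream Slx4 peak had a higher ratio than 99.2% of them, and the Syce1 peak a higher one than 12.3%. The ratios of the 7 peaks thus ran from the low to the high end of the list.

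**Figure D4:**
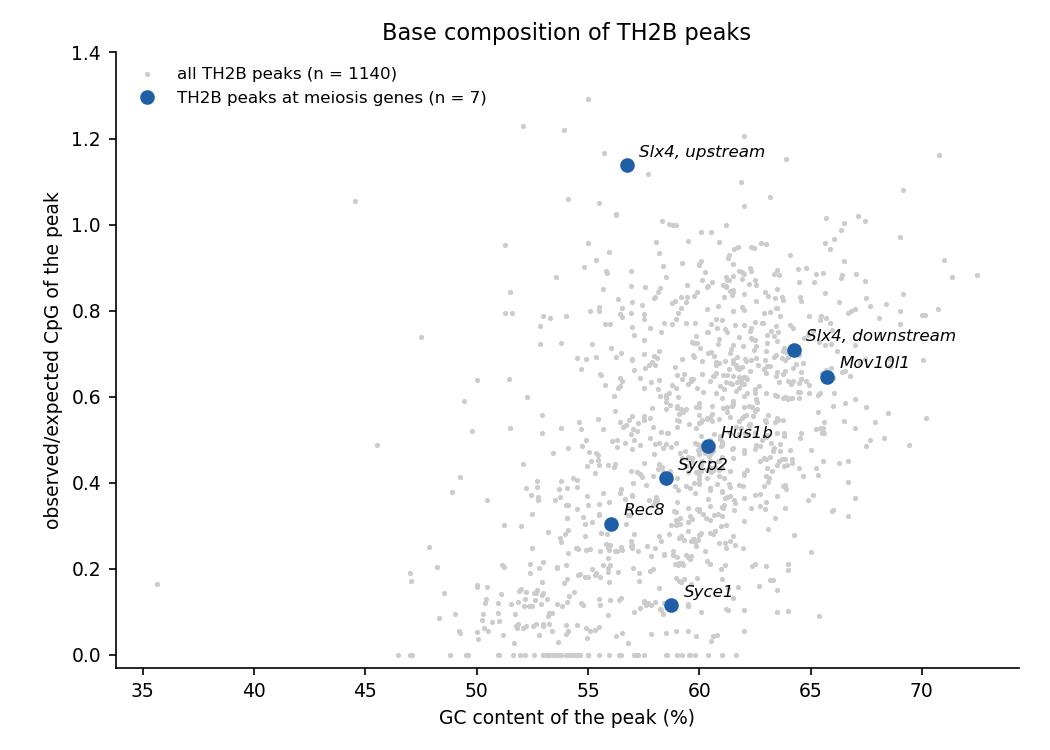
GC content (%) and ratio of observed to expected CpG of all 1140 TH2B peaks on assembled chromosomes (grey) and of the 7 peaks at meiosis genes (blue). The 7 points run from 0.115 at Syce1 to 1.14 at the upstream peak of Slx4 on the CpG axis.

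Widths were 200 to 318 bp with a median of 216 bp, beside 236 bp over all TH2B peaks. The Sycp2 peak had the least width in the list, 200 bp. No peak of either list was narrower than 200 bp, so the widths are not read as the size of a nucleosome.

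Promoter sequences from RefSeq (GRCm38.p6), which run from 250 bp before to 50 bp after the start site, were matched for 32 of the 36 members. Only the promoter of Mov10l1 was overlapped by a TH2B peak. The median CpG ratio was 0.494 over the 6 promoters of genes with a TH2B peak and 0.707 over the 26 of genes without one, beside 0.577 over 17492 protein-coding promoters. The ratios ran from 0.211 to 0.716 in genes with a peak and from 0.218 to 1.14 in genes without one, so that the upper part of the second range held only genes without a peak. Except at Mov10l1 these ratios belong to promoters that the peaks did not overlap. The Slx4 promoter had a ratio of 0.313, whereas the Slx4 peaks had 0.709 and 1.14. The 156 protein-coding promoters that a TH2B peak overlapped had a median of 0.695.

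When all promoters were ranked by CpG ratio and split into 4 groups of near-equal size, the members with a peak fell 1, 2, 3 and 0 in the groups from lowest to highest, of 2, 8, 11 and 11 members. The share of all promoters with a TH2B peak within 1 kb was 0.320%, 1.83%, 2.58% and 2.13% in the same order. This rule is narrower than the 5 kb rule used for the members, so the 2 series are not directly comparable. Within 1 kb of the RefSeq start 4 of 32 members had a peak, without Slx4 and Syce1. Members without a peak included both promoters rich and promoters poor in CpG. The extremes among these are shown: Mlh3, with 22 CpG and a ratio of 1.14, and Syce3, with 5 CpG and a ratio of 0.218, which were also the members without a peak that lay nearest to one.
Mlh3: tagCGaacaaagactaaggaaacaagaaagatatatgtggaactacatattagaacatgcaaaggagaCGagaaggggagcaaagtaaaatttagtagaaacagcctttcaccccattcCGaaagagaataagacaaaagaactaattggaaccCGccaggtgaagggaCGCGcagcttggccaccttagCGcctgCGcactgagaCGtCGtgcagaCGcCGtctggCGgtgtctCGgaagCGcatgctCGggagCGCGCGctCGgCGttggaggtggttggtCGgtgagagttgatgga
Syce3: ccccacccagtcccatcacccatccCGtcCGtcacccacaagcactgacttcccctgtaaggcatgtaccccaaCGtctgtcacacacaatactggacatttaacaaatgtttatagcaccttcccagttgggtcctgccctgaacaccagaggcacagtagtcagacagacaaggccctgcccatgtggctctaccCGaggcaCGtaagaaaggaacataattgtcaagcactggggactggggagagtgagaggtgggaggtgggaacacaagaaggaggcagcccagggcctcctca

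**Figure D5:**
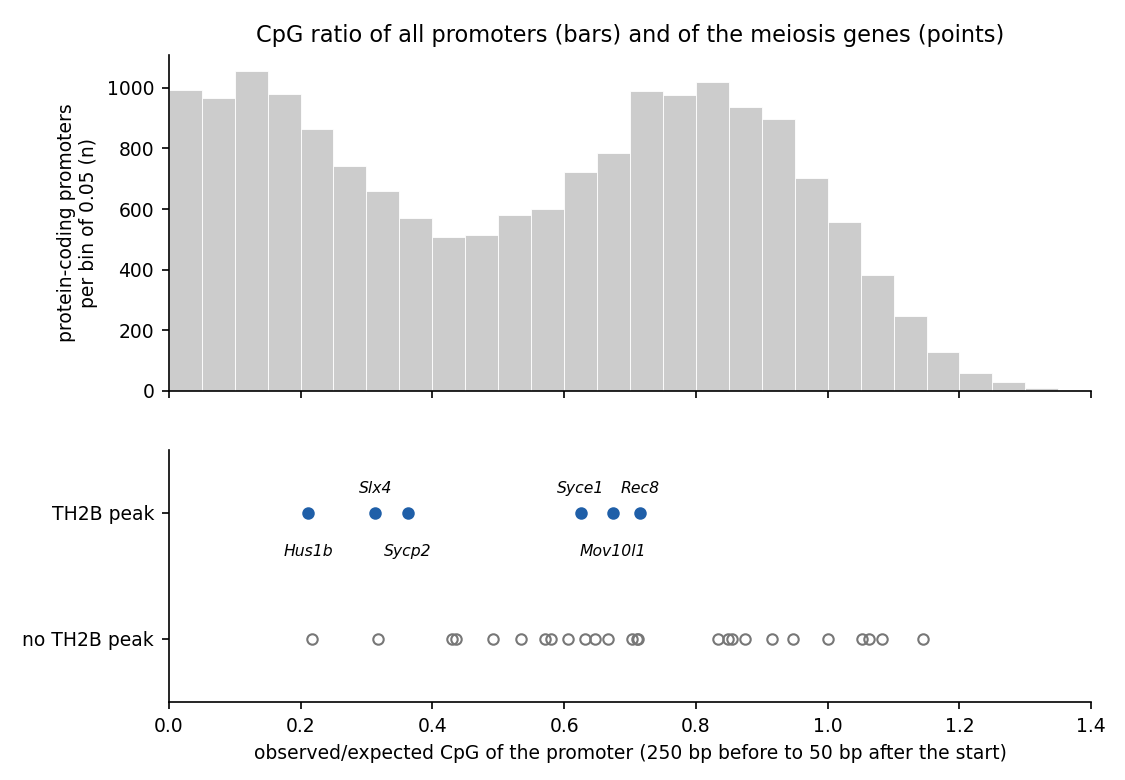
Ratio of observed to expected CpG of promoters. Bars count all protein-coding promoters in bins of 0.05, and points are the 6 meiosis genes with a TH2B peak (filled) and the 26 without one (open). The filled points lie between 0.211 and 0.716, within the range of the open ones but for Hus1b.

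A set of 3 short motifs of factors that act on germ-line genes was counted on both strands: the E-box CACGTG, the E2F-type string TCCCGCC and CNCCTCAG, the string associated with the meiotic entry factors STRA8 and MEIOSIN. None of these strings contains another. In the 7 peaks, CACGTG occurred in that of Sycp2, TCCCGCC in that of Mov10l1, and CNCCTCAG in those of Mov10l1 and of Slx4 upstream. Over all TH2B peaks the shares with each string were 6.14%, 8.86% and 10.7%.

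In the promoters of the members, CACGTG occurred in 9 of 32 (28.1%), beside 7.91% of protein-coding promoters. TCCCGCC occurred in 9 of 32 (28.1%), beside 15%, and CNCCTCAG in 7 of 32 (21.9%), beside 8.57%. Of the 6 members with a TH2B peak, 2 held CACGTG, 0 held TCCCGCC and 1 held CNCCTCAG. A match describes letters in the sequence and shows no binding, and the strings were chosen because they are known at genes of this kind.

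Related pathways were counted from lists of genes that are not members. By the same 5 kb rule, 3 of 39 other meiosis genes had a TH2B peak, which is 7.69% (95% Wilson interval 2.65% to 20.3%) beside the background of 4.23%. Terb2, whose product binds TERB1 at telomeres, had a peak 64.5 bp from its TSS. Atm, the gene of a kinase of the break response, had one 734 bp from its TSS, but a TSS of Npat was nearer. Mcm9, a helicase gene of recombination, had one 12179.5 bp from its TSS, with a TSS of Gm47739 nearer.

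Of 16 genes of mitotic cohesin and its regulators 2 had a TH2B peak (12.5%, interval 3.50% to 36%). Esco2, an acetyltransferase gene that helps to establish cohesion and that the study names for TH2B, had it 37.5 bp from the TSS. Cdca5, which encodes the cohesin stabilizer sororin, had it 3822.5 bp from the TSS, with a TSS of Gm28374 nearer, and this peak was also the one nearest to Majin. Of 14 genes of SLX4 partners and junction resolution 1 had a peak (7.14%, interval 1.27% to 31.5%), namely Terf2, a telomere binding protein gene, 42.5 bp from the TSS, where a TSS of Mir7075 was nearer.

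None of 12 genes of the 9-1-1 clamp and checkpoint had a TH2B peak (Wilson interval up to 24.2%), nor did any of 20 piRNA pathway genes (up to 16.1%). Both intervals hold the 4.23% of protein-coding genes, so these counts of 0 are not a result about the pathways. Over all 100 different genes of these lists 6 had a TH2B peak, or 6.0% (interval 2.78% to 12.5%), an interval that holds the 4.23% of protein-coding genes. Among the 6 is Esco2, which the study names from this same peak list, so the share is not fully independent of the study. No gene of the lists had a TH2A peak. Of 3 further genes that the study names with the members, Ndc1 and Psmd13 had a TH2B peak by this rule and Lemd2 did not.

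The members had a median length of 33827 bp, beside 17318 bp over protein-coding genes, and the background rose from 3.36% in the shortest of 4 equal groups of genes to 5.54% in the longest. Of the 6 members with a TH2B peak 1, 2, 1 and 2 fell in these groups from shortest to longest, of 2, 6, 14 and 14 members.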

How the data were processed

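Mononucleosomal DNA of TH2A and TH2B native ChIP and of Input was sequenced. After trimming (Trimmomatic) the authors mapped the reads to mm10 by BWA MEM, used SAMtools to drop unmapped ones and ran MACS2 2.1.3 with Input as control and a p-value cutoff of 0.05. The handling of duplicates and of reads with several positions is not given in the sources used here. The unit of the deposited lists is a position in bp (chromosome, start, end and width, both ends included). Input was not analysed on its own.

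Peaks were assigned to GENCODE M21 genes (GRCm38.p6) when at least 1 bp lay in the gene or within 5 kb, and distances were taken between the centre of a peak and the closest transcript start of that gene. Near-identical copies were BLAST (version 2.17.0) matches elsewhere that covered 80% or more of a peak with 95% identity or more. Python 3.11.15, numpy 2.4.6, scipy 1.17.1, pysam 0.24.0 and matplotlib 3.10.9 were used. Shares have 95% Wilson intervals, and a count of 0 has an upper limit of 3 counts. No test was made with 1 library per variant. The counting code was run on simulated data, where 200 of 200 planted peaks were found. All were planted inside the 5 kb window, so the run checks the code and not the choice of gene. Other windows, start sites and peak widths were tried. All members were named, with full values for those with a peak, and genes of the pathway lists were named where they had one. The members and lists were chosen with earlier results of these data known.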

Additional observations from a re-analysis of the deposited data

How the results depend on the processing

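The share of meiosis genes with a TH2B peak was 13.9% to 19.4% under 6 alternatives. These changed the window or the peak assignment, or left out peaks with near-identical copies. It fell to 5.56% (2 of 36, Hus1b and Mov10l1) with peaks of at least 250 bp. A stricter threshold could not be applied as the lists hold no score, and whether width follows the strength of a peak is unknown. Without the genes named by the study, which include every member with a TH2B peak, the share was 0. The background share was 2.89% in the gene body, 3.40% within 1 kb, 5.14% within 10 kb, 2.87% by nearest TSS, 3.84% without peaks that have near-identical copies, 1.86% with peaks of at least 250 bp, and 3.36%, 3.72% and 5.54% in groups 1, 2 and 4 of gene length. At 10 kb Mlh3 joined the genes with a peak. The TH2A count stayed at 0 under 5 alternatives. With RefSeq start sites, an alternative chosen after seeing the data, 4 of 32 members had a TH2B peak within 1 kb, as Slx4 was lost. The median TSS distance was 269.5 bp from the peak edge and 530 bp from the 5′ end. No paired analysis was possible because there is 1 library per variant. Depth limits what a missing peak means, since coverage at the genes without a peak is unknown.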
